A study of Mus musculus with 18 samples.

Results

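Nr1d1 and Nr1d2, the genes of the nuclear receptors REV-ERB alpha and REV-ERB beta, were followed through a day of the circadian clock in cultured fibroblasts. They were read from the probe sets that the platform annotation gives to exactly 1 of them, which were 2 among 35556 on the array: 10390691 for Nr1d1 and 10417734 for Nr1d2. They are 2 of 19938 genes measured this way. No other probe set named either gene, alone or with others. The cells were wild type mouse embryonic fibroblasts of C57BL/6 background, grown from embryos taken at embryonic day 13 after removal of the head and the liver. All of them received 100 nM dexamethasone, a synthetic glucocorticoid that sets the clocks of cultured cells to a common phase, for 2 h. RNA was collected 22, 26, 30, 34, 40 and 46 h after this treatment, 3 samples at each time, and each of the 18 samples was hybridised to 1 Affymetrix array. Per the labels, the fibroblasts came from 2 mice of a breeding scheme that also gave Bmal1-/- cells, and the samples of a time are biological replicates. Which sample came from which culture or mouse is not given in the sources used here, so a p-value here reflects only how much those samples vary, which may be technical. Untreated cells were not analysed here, and with 1 cycle of 24 h sampled, no peak was observed a second time.

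REV-ERB alpha and beta are nuclear receptors that bind haem and lack the helix through which related receptors activate genes. On DNA they recruit the corepressor NCoR with the histone deacetylase HDAC3 and so hold genes down, among them Arntl, which encodes the clock activator BMAL1. BMAL1 and its partner CLOCK bind E-box letters and switch on Nr1d1 and Nr1d2, and the ROR receptors compete with REV-ERB for the same sites as activators. The 2 REV-ERB genes thus form a further loop of the clock, beside the one made by the Per and Cry genes.

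The 300 bases around the annotated start of each gene, 250 before it and 50 after it, are shown with the letters that these factors are known for. The Nr1d1 window is chr11:98775328-98775627 on the minus strand, the Nr1d2 window is chr14:18239057-18239356 on the minus strand, and the Arntl window is chr7:113207261-113207560 on the plus strand, all from RefSeq on build GRCm38.p6 and printed 5′ to 3′ along the gene. Capitals mark AACGTG (an E-box variant), AGGTCA (the half-site of REV-ERB and ROR) and GGGCGG (a GC box). CACGTG (the E-box) and TTATGTAA (a D-box) were also searched on both strands. These motifs do not overlap each other in the windows.
Nr1d1: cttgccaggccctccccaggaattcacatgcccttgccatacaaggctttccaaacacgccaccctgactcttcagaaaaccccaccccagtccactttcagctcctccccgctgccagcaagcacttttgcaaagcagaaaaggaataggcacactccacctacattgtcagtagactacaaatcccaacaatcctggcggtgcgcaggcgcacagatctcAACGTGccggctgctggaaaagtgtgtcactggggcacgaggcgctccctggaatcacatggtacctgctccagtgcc
Nr1d2: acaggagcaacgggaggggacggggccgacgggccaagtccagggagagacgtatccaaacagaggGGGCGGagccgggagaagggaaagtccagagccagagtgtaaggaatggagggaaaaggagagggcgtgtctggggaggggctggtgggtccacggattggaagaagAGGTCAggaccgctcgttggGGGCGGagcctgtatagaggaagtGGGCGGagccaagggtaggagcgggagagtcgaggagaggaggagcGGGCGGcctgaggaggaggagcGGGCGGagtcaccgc
Arntl: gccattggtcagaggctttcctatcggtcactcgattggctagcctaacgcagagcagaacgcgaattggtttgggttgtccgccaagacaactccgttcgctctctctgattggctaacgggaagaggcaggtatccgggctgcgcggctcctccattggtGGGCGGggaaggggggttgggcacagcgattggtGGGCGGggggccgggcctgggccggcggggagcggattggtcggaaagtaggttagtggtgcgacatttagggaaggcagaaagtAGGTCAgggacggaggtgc

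The windows of the REV-ERB genes differed in the letters they held. Nr1d1 had 1 AACGTG, with its first base at position -28 from the start, and none of the other 4 motifs. The Nr1d2 window held 1 AGGTCA at position -77 and 5 copies of GGGCGG, 3 of them before the start and 2 after it, but neither AACGTG nor CACGTG. In Arntl an AGGTCA lay 32 bases into the transcribed part, and 2 copies of GGGCGG lay before the start. A second annotated start of Arntl, whose window overlaps this one, reached GGGCGG but not AGGTCA. Over 32851 windows of the same length AACGTG was present in 4.68%, CACGTG in 7.15%, TTATGTAA in 0.938%, AGGTCA in 16.3% and GGGCGG in 35.7%. The GC content was 56.3% for Nr1d1 and 65.7% for Nr1d2, against a median of 52.7%. A match is a description of the letters and not a bound site, and binding outside these windows was not examined.

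Array medians lay between 196 and 210 intensity units, and no 2 arrays held the same values. How precise a value can be is set by the 3 arrays of a time. Of 10 fibroblast markers, the brightest were Vim, Dcn and Col1a2, with mean log2 levels from 13.2 to 13.3, and Thy1 was the dimmest at 7.31. The lists of epithelial, endothelial, immune, neural, muscle and adipocyte markers had median levels from 6.47 to 8.18 log2, against 8.07 for all genes. All 7 measured proliferation markers were called lower at 46 h than at 22 h (adjusted p under 0.05, limma), as were 9.73% of all genes. The mean level of that list was 10.75 ± 0.11 (SD, n = 3) log2 at 22 h and 9.25 ± 0.09 at 46 h. In RNA from whole cultures, fewer cells of a type and less RNA per cell cannot be told apart.

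Nr1d1 was high at 22 h, low from 26 to 34 h and high again at 46 h. On the log2(intensity + 16) scale, its 3 arrays read 10.37, 10.71 and 10.28 at 22 h. The 26 h arrays read 9.49, 8.91 and 9.57, those of 30 h 9.05, 9.09 and 9.32, and those of 34 h 8.93, 9.23 and 9.08. Every array of these middle times lay below every array of 22 h, as arrays did without overlap in either direction for 17.6%, 21.9% and 27.8% of all genes at 26, 30 and 34 h. The level then came to 9.84, 9.49 and 9.80 at 40 h and to 10.09, 10.28 and 9.92 at 46 h. All 46 h arrays were above all 40 h arrays (12.3% of genes had no overlap between these times), and their highest reached the lowest of 22 h at 10.28. In intensity, the mean was 1425 ± 218 (SD, n = 3) at 22 h, 522 ± 50.3 at 34 h and 1080 ± 133 at 46 h.

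The time means of Nr1d1 were lowest from 26 to 34 h, and its level at 46 h could not be told from that at 22 h. Its time means on the log2 scale spanned 1.38, or 2.60-fold, from 10.45 ± 0.23 (SD, n = 3) at 22 h to 9.08 ± 0.15 at 34 h, and it passed limma's F test over the times (adjusted p = 2.14e-05, Benjamini-Hochberg over 19938 genes), as did 19.8% of all genes. The first step, from 22 to 26 h, was a fall of -1.13 ± 0.16 log2 (SE; adjusted p = 0.000619), where 2.19% of genes were called. Against 22 h it was also lower at 30 h (-1.30, adjusted p = 7.37e-05, 4.69% called), at 34 h (-1.38, adjusted p = 2.97e-05, 9.44% called) and at 40 h (-0.74, adjusted p = 0.00313, 21.4% called). At 46 h its log2 level was -0.36 ± 0.16 from that of 22 h, which did not pass (adjusted p = 0.119), and the arrays overlapped. From 34 to 46 h it rose by 1.02 ± 0.16 log2, or 2.03-fold (adjusted p = 0.000839, 3.57% called). The level at 46 h was likewise above that at 26 h (0.77, adjusted p = 0.00360, 13.2% called) and at 30 h (0.94, adjusted p = 0.00101, 9.15% called). From 26 to 40 h the change of 0.39 did not pass (adjusted p = 0.116, limma), where 12% were called. The end of the low stretch was thus not resolved.

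In order of level, the times of Nr1d1 ran 22, 46, 40, 26, 30 and 34 h, and no neighbours in that order differed by limma's test (adjusted p from 0.116 to 1.0). Few genes moved between some of these times: 0% were called between 26 and 30 h (517 of 19938 had an unadjusted p under 0.05), 0.0903% between 30 and 34 h, 0.0702% between 26 and 34 h and 0.0351% between 40 and 46 h. The change of Nr1d1 from 34 to 40 h, 0.63 ± 0.16, had groups that did not overlap, as for 14.8% of genes, yet it did not pass (adjusted p = 0.0726), where 0.823% of genes were called. That step passed without replicate 2 at 22 h (adjusted p = 0.0488), replicate 2 at 26 h (0.0212) or replicate 2 at 40 h (0.0336). The gain from 30 to 40 h, 0.56 log2, passed narrowly (adjusted p = 0.0460, 5.51% called). It was lost without any 1 of 12 arrays (1 and 3 at 22, 40 and 46 h, and all at 30 and 34 h), with adjusted p up to 0.169.

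Nr1d2 was likewise highest at 22 h and lowest at 34 h, with intermediate levels at 26 and 30 h. At 22 h its arrays read 11.08, 10.88 and 11.08 log2, followed by 10.43, 10.17 and 10.55 at 26 h and by 10.00, 10.01 and 10.61 at 30 h. Replicate 3 of 30 h stood 0.41 above the mean of its time and above all arrays of 26 h. The lowest levels, 9.77, 9.83 and 9.50, came at 34 h, with 9.93, 10.08 and 9.78 at 40 h. At 46 h the arrays read 10.32, 10.35 and 10.19, above all arrays of 34 and 40 h and below all of 22 h. Groups without overlap were found in 22.7% of genes between 34 and 46 h and in 36.6% between 22 and 46 h. Between 22 and 40 h, where the arrays of Nr1d1 and of Nr1d2 did not overlap, the share was 31.7%. Mean intensity was 2096 ± 192 (SD, n = 3) at 22 h, 814 ± 97.5 at 34 h and 1225 ± 66.1 at 46 h.

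On the log2 scale the time means of Nr1d2 spanned 1.31, or 2.48-fold, from 11.01 ± 0.12 (SD, n = 3) at 22 h to 9.70 ± 0.18 at 34 h (adjusted p = 6.98e-05, limma's F test). Much of this span rested on the first time: without the arrays of 22 h the range was 0.68 (adjusted p = 0.0231), whereas that of Nr1d1 was then 1.02 (adjusted p = 0.00142). Nr1d2 fell by -0.63 ± 0.14 log2 (SE) from 22 to 26 h (adjusted p = 0.0275). This call was lost without replicate 1 or 3 at 22 h (adjusted p = 0.141 and 0.139) and without replicate 1 or 2 at 26 h (0.0624 and 0.142). Against 22 h it was lower at 30 h (-0.80, adjusted p = 0.00282), 34 h (-1.31, adjusted p = 1.90e-05) and 40 h (-1.08, adjusted p = 3.95e-05). Unlike the change in Nr1d1, its difference of -0.73 ± 0.14 between 46 and 22 h passed (adjusted p = 0.00124), where 21.2% of genes were called; whether the genes differ in this change was not tested. The proliferation markers that were lower at 46 h had a median difference of -1.48, and their part in the result was not tested.

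From 34 to 46 h it rose by 0.58 ± 0.14 log2, or 1.5-fold (adjusted p = 0.0260). Leaving out any 1 array of 34 h (adjusted p = 0.0504, 0.0517 and 0.122 without replicate 1, 2 and 3) or of 46 h (0.0869, 0.0810 and 0.0643) ended that call. Its level at 40 h was below that at 26 h (-0.46, adjusted p = 0.0444), where 12% of genes were called. This too was narrow, since 10 single arrays (1 and 3 at 22, 26 and 40 h, 1 at 34 h, and all at 46 h) ended it when left out, with adjusted p up to 0.176. In order of level its times ran 22, 26, 46, 30, 40 and 34 h, and of the neighbours only 22 and 26 h differed (the others had adjusted p from 0.253 to 0.789). Of the 15 pairs of times, 8 passed for Nr1d1 and 7 for Nr1d2.

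**Figure D1:**
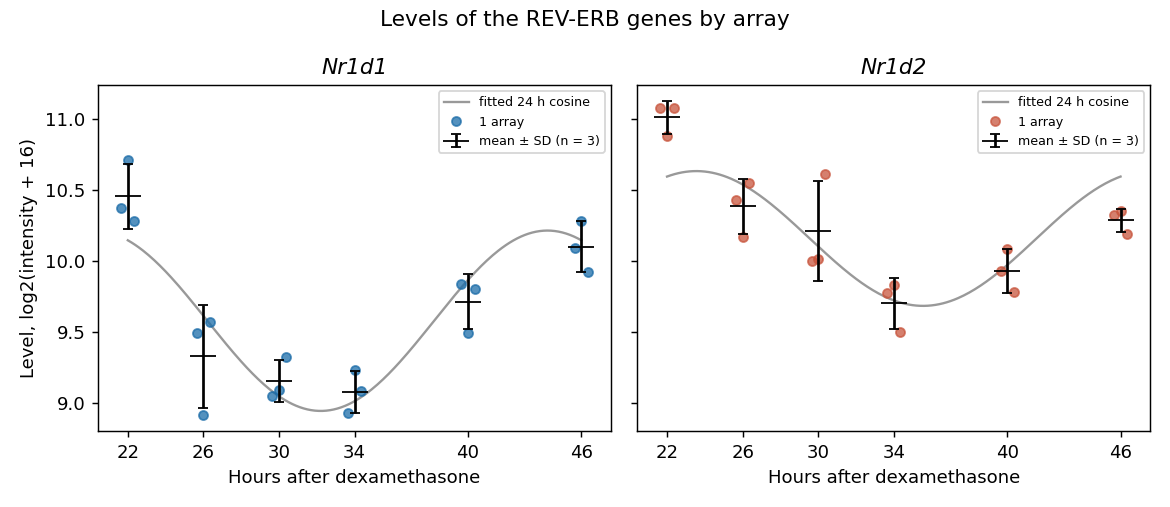
Levels of Nr1d1 (left) and Nr1d2 (right) on the log2(intensity + 16) scale against hours after dexamethasone; points are arrays, black marks are means with SD (n = 3) and the grey line is the fitted 24 h cosine. Nr1d1 returned at 46 h to 10.10 from 9.08 at 34 h, and Nr1d2 to 10.28 from 9.70, below its 11.01 at 22 h.

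The middle of the day was set against its ends by comparing 34 h with the mean of 22 and 46 h. Nr1d1 was lower at 34 h by -1.20 ± 0.14 log2 (SE; adjusted p = 0.00168, limma) and Nr1d2 by -0.95 ± 0.12 (adjusted p = 0.00523). Only 0.0401% of genes were called lower in this contrast, and 0.135% in either direction. All arrays of 34 h lay below all arrays of 22 and 46 h for both genes, as they did for 1.1% of all genes.

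A cosine of 24 h gave Nr1d1 an amplitude, the distance from the middle to the peak, of 0.64 ± 0.08 log2 (SE, n = 18 arrays) and Nr1d2 one of 0.47 ± 0.09. The test passed for both (adjusted p = 0.00424 and 0.0333, limma), against 0.828% of all genes, and among the genes that passed these amplitudes ranked 2 and 4. The cosine took up 75.9% of the variance of Nr1d1 and the 6 time means 88.6%, whereas for Nr1d2 the shares were 60.1% and 86.4%. Fitted peaks fell at 44.2 ± 0.57 h and 23.6 ± 0.78 h. On a circle of 24 h the fitted peak of Nr1d2 thus lay 3.34 ± 0.83 h (SE) after that of Nr1d1. This lag and its SE take the cosine as the true shape. In the time means both genes were highest at 22 h and lowest at 34 h. The curve missed some times for both genes, and all 3 arrays of 22 h lay above it in each. For Nr1d1 all 3 of 30 h also lay above it, and all 3 of 26 h and all 3 of 40 h below it. For Nr1d2 all 3 of 46 h lay below it. With a period of 20 h neither passed (adjusted p = 0.369 and 0.589). With a period longer than 24 h both passed, so these fits do not single out 24 h. Single arrays ended the Nr1d2 call in 8 cases: replicates 1 and 3 of 26 h, replicate 2 of 30 h, any of 34 h, and replicates 1 and 3 of 40 h, with adjusted p up to 0.0886.

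The courses of the genes were also compared by the difference Nr1d1 minus Nr1d2 within each array. This quantity has no meaning as a ratio of amounts, because probe sets differ in brightness, but its change over time shows where the genes part. It can come from unequal amplitude as well as from unequal phase, and does not show which gene peaks first. Relative to the mean of all arrays it stood at -0.44 log2 at both 26 h (SD 0.18, n = 3) and 30 h (SD 0.21), and at 0.40 (SD 0.33) at 40 h and 0.43 (SD 0.11) at 46 h. At 22 h it was 0.06, with a spread of 0.35, and at 34 h -0.01. Nr1d1 thus stood lower relative to Nr1d2 at 26 and 30 h than at 40 and 46 h. The 6 arrays of 22 and 46 h exceeded the 6 of 26 and 30 h by 0.68 log2 and did not overlap them. An exact two-sided permutation test gave p = 0.00216, the smallest that 924 arrangements allow.

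**Figure D2:**
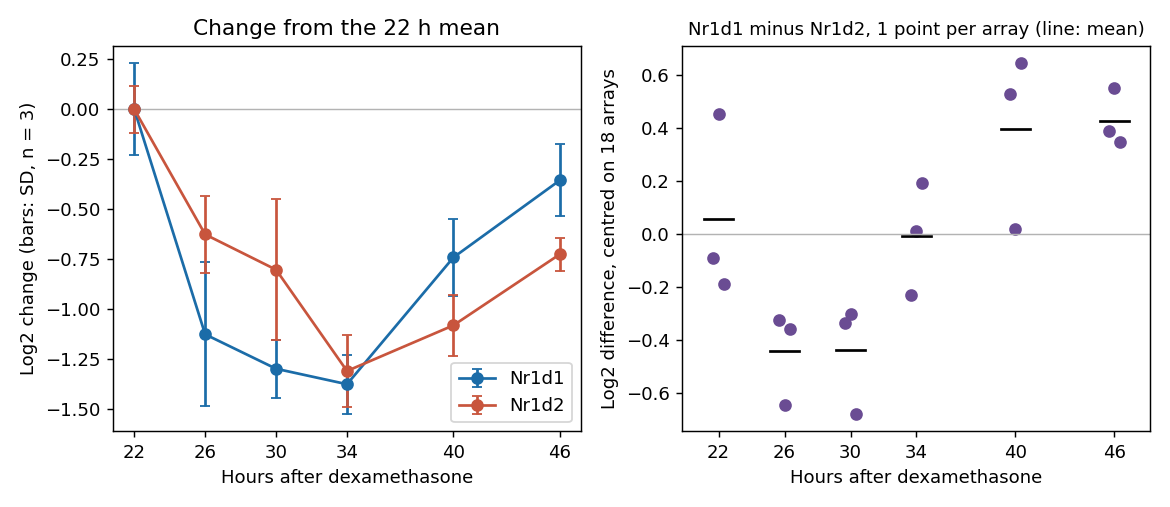
Left, log2 change of both genes from the 22 h mean, with SD (n = 3), against hours after dexamethasone; right, Nr1d1 minus Nr1d2 in each array, centred on the mean of 18 arrays, with lines at the time means. Nr1d1 lay 0.44 log2 below the centre relative to Nr1d2 at 26 and 30 h and 0.43 above it at 46 h.

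Among the activators of the REV-ERB genes, Arntl was lowest at 22 h, intermediate at 26 and 30 h (means 9.29 and 9.39 log2) and higher from 34 to 46 h. Its arrays read 9.03, 8.79 and 9.0 log2 at 22 h. At 34 h they were at 9.74, 9.62 and 9.57, with 9.56, 9.48 and 9.63 following at 46 h. It was thus lowest where both REV-ERB genes were highest, and its mean was highest at 34 h, where both had their lowest mean. It passed the F test with a range of 0.70 log2 (adjusted p = 0.000498, limma) but not the cosine test (amplitude 0.24, adjusted p = 0.137), and without the arrays of 22 h its range was 0.35 and it did not pass (adjusted p = 0.0741). Between 22 and 46 h Arntl rose by 0.62 log2 (adjusted p = 0.000283). From 34 to 46 h, while Nr1d1 and Nr1d2 rose, its difference was -0.09 (adjusted p = 0.771), and 34 h against the mean of 22 and 46 h did not pass either (0.40, adjusted p = 0.0870). Its fitted peak came 16.4 h after that of Nr1d1. Clock, the partner of BMAL1, had a range of 0.21 and did not pass the F test (adjusted p = 0.0939), and Npas2 is not analysed here.

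Among repressors that, like the REV-ERB genes, are driven through E-boxes, those that passed the cosine test had fitted peaks from 6.73 to 10.0 h behind Nr1d1. All 8 E-box repressors passed the F test (19.8% of all genes did) and 5 passed the cosine test (0.828% of all genes), with a median range of 0.63 log2 against 0.19 for all genes. Per3 and Per2, period genes whose proteins restrain CLOCK and BMAL1, had ranges of 1.5 and 0.75 and fitted peaks 6.73 and 7.03 h behind Nr1d1. Cry2, Bhlhe41 and Cry1 passed as well, 7.39, 8.01 and 10.0 h behind it. Ciart (range 1.24) and Bhlhe40 (0.57), repressors of the same arm, passed the F test alone, both falling to their lowest mean at 46 h; without the arrays of 22 h the range of Ciart was 0.59. Per1 was highest at 46 h and passed narrowly (range 0.37, adjusted p = 0.0452), a call that held without replicate 2 at 22 h, any array of 40 h or replicate 1 at 46 h and was lost without each of the other 13 arrays or all of 46 h.

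All 4 D-box factors passed the F test, against 19.8% of all genes, and 2 the cosine test, against 0.828%. Dbp and Tef, activators that bind D-boxes and are driven by the clock, had ranges of 1.33 and 0.74 log2 and passed both tests. Their fitted peaks lay 5.71 and 5.93 h after that of Nr1d1. Both were lowest at 40 h, and like the REV-ERB genes both were lower at 34 h than at the mean of 22 and 46 h (-0.65, adjusted p = 0.0133, and -0.42, adjusted p = 0.0366). Hlf, their relative (range 0.38), and Nfil3, the repressor at D-boxes (0.33), passed the F test alone, and neither passed without the arrays of 22 h. Hlf was lowest at 22 h (9.81 log2) and highest at 46 h (10.19), whereas Dbp and Tef had their highest means at 22 h. Nfil3, itself described as a REV-ERB target, was lowest at 22 h (8.58 log2) and highest at 26 h (8.91). Of the ROR genes, whose proteins compete with REV-ERB, Rora was lowest at 22 h and highest at 46 h (range 0.37, adjusted p = 0.00282), a call lost without the arrays of 46 h, while Rorb had a range of 0.15 and did not pass.

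**Figure D3:**
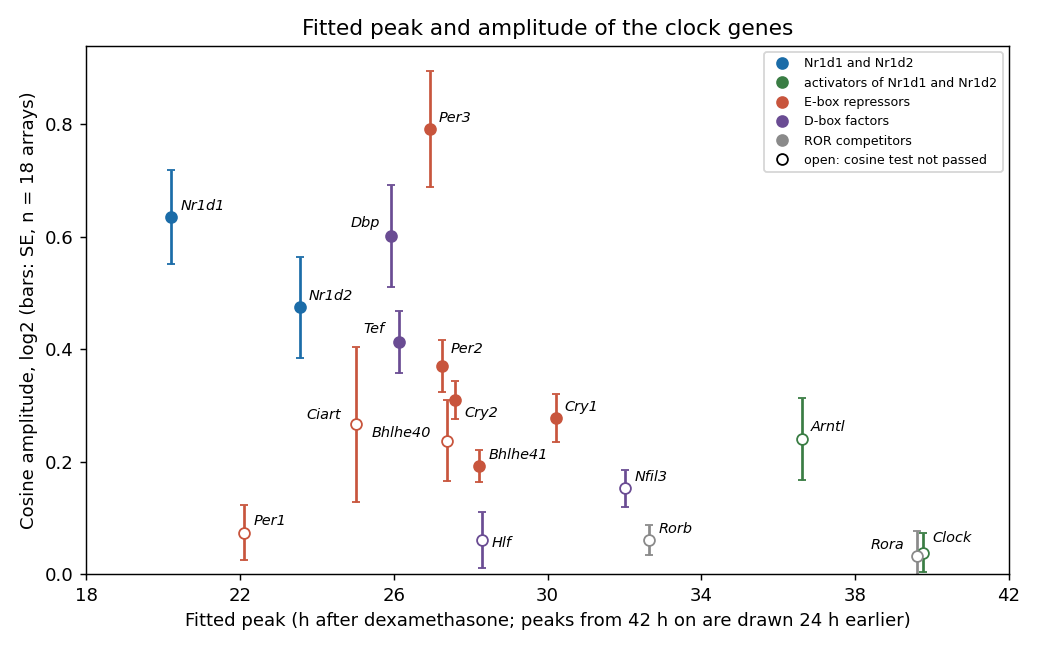
Amplitude of the fitted 24 h cosine (log2, bars SE) against the fitted peak in hours for Nr1d1, Nr1d2 and the clock genes around them; open points did not pass the cosine test, and peaks from 42 h on are drawn 24 h earlier. The fitted peak of Nr1d2 lies 3.34 h and that of Dbp 5.71 h after that of Nr1d1. The fitted peak of Arntl, an open point, lies 16.4 h behind that of Nr1d1.

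Of 21 genes described as REV-ERB targets, 18 were measured, 9 passed the F test (19.8% of all genes) and 1, Cry1, passed the cosine test (0.828% of all genes). Their median range was 0.26 log2. Arntl, Cry1 and Nfil3, clock genes that passed, were each lowest at 22 h. So was Insig2, a regulator of sterol synthesis (range 0.28), whose call was lost without replicate 1 or 3 at 22 h. Mmp9, a matrix protease gene, was highest at 40 h and lowest at 46 h (range 0.53; not passed without the arrays of 46 h), and Fgf21, a metabolic hormone gene, was highest at 46 h and lowest at 30 h (0.34). Il6, a cytokine gene (0.25), Ccl2, a chemokine gene (0.43), and Tlr4, a receptor of innate immunity (0.31), passed as well and had their lowest mean at 46 h. Il6 had its highest mean at 26 h, Ccl2 at 34 h, and Tlr4 at 22 h, where both REV-ERB genes were also highest. Il6 was dim, with a mean level of 4.95 log2, and its call was lost without replicate 3 at 22 h, with a larger constant added before the log2 and with trended, robust variances. The Ccl2 call was lost without any 1 of 9 arrays (1 and 3 at 22 and 34 h, 2 and 3 at 26 h, and all at 46 h). Without the arrays of 22 h 5 targets passed the F test, and without those of 46 h 6; Arntl, Nfil3, Insig2 and Il6 were lost in the first case, and Il6, Ccl2 and Mmp9 in the latter. Between 22 and 46 h, 5 targets rose and 3 fell, against 11.5% and 9.73% of all genes. Cry1, a cryptochrome repressor, was the 1 target that differed between 34 h and the mean of 22 and 46 h, and it was higher at 34 h (0.29 ± 0.04 log2, SE; adjusted p = 0.0100). The 9 targets that did not pass, among them Ppargc1a, G6pc, Pck1 and Lpl, had ranges from 0.12 to 0.27.

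The corepressor and turnover lists hold transcripts for proteins that REV-ERB works with. In the corepressor list 4 of 6 genes were measured and 1 passed the F test, which 19.8% of all genes passed: Hdac3, the histone deacetylase, was highest at 30 h and lowest at 46 h with a range of 0.18 log2 (adjusted p = 0.0305). It was lost without 1 or 3 of 22 or 26 h or any array of 46 h, and without all arrays of either 22 or 46 h. Tbl1x, Tbl1xr1 and Gps2 had ranges from 0.12 to 0.17 and did not pass. Of 7 genes for kinases and ubiquitin ligases described to act on REV-ERB protein, 2 passed, so that neither list's count can be set apart from that share. Cdk1, which is also a cell division gene, was highest at 22 h and lowest at 46 h (range 0.82), and Fbxw7, a ligase subunit, was lowest at 40 h (0.28; lost without replicate 1 or 3 at 22 h or replicate 3 at 40 h, or all arrays of 46 h). Without the arrays of 22 h Cdk1 did not pass. Gsk3b, the kinase gene GSK3 beta, had a range of 0.03, the smallest of the list.

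Haem is the ligand of REV-ERB, and 11 of 12 genes of its synthesis and breakdown were measured, of which 2 passed the F test. Alas1, the rate-limiting enzyme of haem synthesis, was lowest at 22 h and highest at 34 h with a range of 0.20 log2 (adjusted p = 0.0164, limma's F test), and did not pass on the values as deposited or without the arrays of 22 h. Blvrb, a biliverdin reductase gene, passed narrowly (0.20, adjusted p = 0.0495) and was lost without each of 17 arrays, all but replicate 2 at 22 h. The other 9 had ranges from 0.09 to 0.37. Among 15 measured members of the NR1 receptor group to which REV-ERB belongs, 3 passed: Thra (thyroid hormone receptor alpha, 0.50), Rora (0.37) and Vdr (vitamin D receptor, 0.34; not passed without the arrays of 46 h). Both counts lie near the 19.8% of all genes that passed. The median range was 0.15 for the receptors and 0.19 for the haem genes, as for all genes at 0.19.

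**Figure D4:**
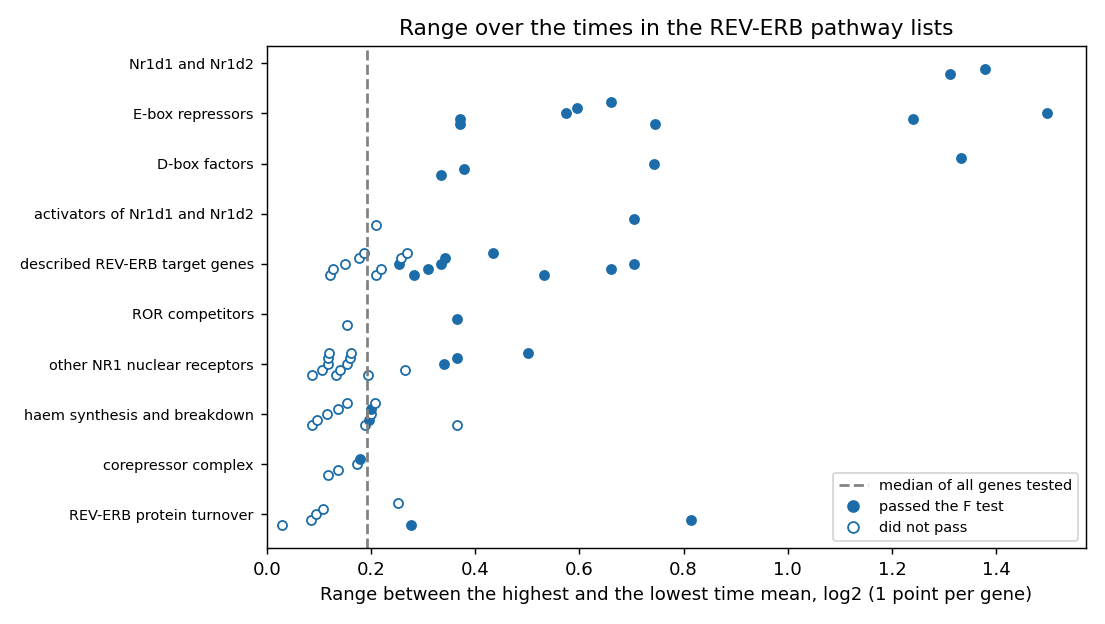
Range between the highest and the lowest time mean (log2), 1 point per gene, for Nr1d1 and Nr1d2 and the gene lists around them; filled points passed the F test and the dashed line is the median of all genes, 0.19. Nr1d1 (1.38) and Nr1d2 (1.31) stand with Per3 (1.5), Dbp (1.33) and Ciart (1.24), and the corepressor genes lie at or below 0.18.

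Thra overlaps Nr1d1 on chromosome 11 in the RefSeq table. Its arrays read 10.49, 10.74 and 10.56 log2 at 22 h. At 34 h they were at 11.03, 11.04 and 11.10, with 11.04, 11.13 and 11.09 following at 46 h. The level rose to a plateau and stayed there when Nr1d1 returned: it was 0.49 ± 0.07 log2 (SE) higher at 46 than at 22 h (adjusted p = 8.83e-05), while Nr1d1 was then at -0.36. The probe sets' positions within the shared stretch were not examined. Of the other 5 measured neighbours of Nr1d1, Rapgefl1 passed the F test (range 0.41, adjusted p = 0.00106), with its lowest mean at 22 h and its highest at 46 h, and Csf3, Med24, Msl1 and Casc3 had ranges from 0.09 to 0.14 and did not. None of the 6 neighbours of Nr1d2 on chromosome 14 passed: Thrb, Rarb, Top2b, Nkiras1, Ube2e1 and Ube2e2 ranged from 0.09 to 0.28. As 19.8% of all genes passed the F test, neither gene's count of neighbours can be set apart from that share.

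Among samples of the same time, Nr1d1 and Arntl deviated in opposite directions. This relation was chosen after the values were seen, as 1 of 3 tested between Nr1d1, Nr1d2 and Arntl. At 26 h replicate 2 had Nr1d1 at 8.91 and Arntl at 9.57, while replicates 1 and 3 had Nr1d1 at 9.49 and 9.57 and Arntl at 9.19 and 9.12. At 30 h replicate 3 stood apart, with Nr1d1 at 9.32 against 9.05 and 9.09 and Arntl at 9.22 against 9.47 in both others. Taken as deviations from the mean of each time, the values of both genes had the same sign in 1 of 18 arrays. Pearson's r of these deviations was -0.94 (exact permutation within times, 46656 arrangements, two-sided p = 0.000557, adjusted 0.00167) and Spearman's rho -0.88 (p = 0.00103, adjusted 0.00309, same permutation test). It was -0.89 without replicate 2 at 26 h and replicate 2 at 22 h, the arrays farthest from the median in Nr1d1. Of 19938 genes, Arntl had the lowest r with Nr1d1, followed by Bub3 and Dimt1 (both -0.88). Cdc42bpb and Ptpn23 (both 0.93) were nearly as far in the other direction.

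For Nr1d2 neither relation passed. Its deviations had an r of 0.33 with those of Nr1d1 (exact permutation p = 0.236, adjusted 0.236; rho 0.23, p = 0.439) and of -0.39 with those of Arntl (exact permutation p = 0.210, adjusted 0.236; rho -0.23, p = 0.496). The first became 0.31 without the same 2 arrays, and the second -0.04 without replicate 3 at 30 h and replicate 2 at 26 h. The arrays also differed along a component that held 33.8% of all variance within times, with which Nr1d1 correlated at 0.70, Arntl at -0.55 and Nr1d2 at -0.35. With this component taken out, the r of Nr1d1 was -0.92 with Arntl and 0.85 with Nr1d2, and that of Nr1d2 with Arntl was -0.75. Among the 10 arrays with positive values on it the r of Nr1d1 and Nr1d2 was 0.71, and among the 8 others 0.82. For Nr1d1 and Arntl the values were -0.88 and -0.95. The component was computed from these same deviations and used after the values were seen. The r values with it taken out or by its sign are therefore descriptions and were not tested. As a description over the 18 arrays, the deviations of Nr1d1 had an r of 0.84 with those of Dbp, 0.77 with Cry2 and 0.71 with Tef. Among 19938 genes these stood at places 49, 299 and 651 from the highest. Other clock genes stood lower, such as Ciart (0.13) and Cry1 (-0.34). For Nr1d2 the r was 0.83 with Per3, 0.73 with Ciart, 0.72 with Per2 and 0.69 with Tef (places 6, 38, 56 and 82). It was 0.06 with Hlf and -0.26 with Per1.

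**Figure D5:**
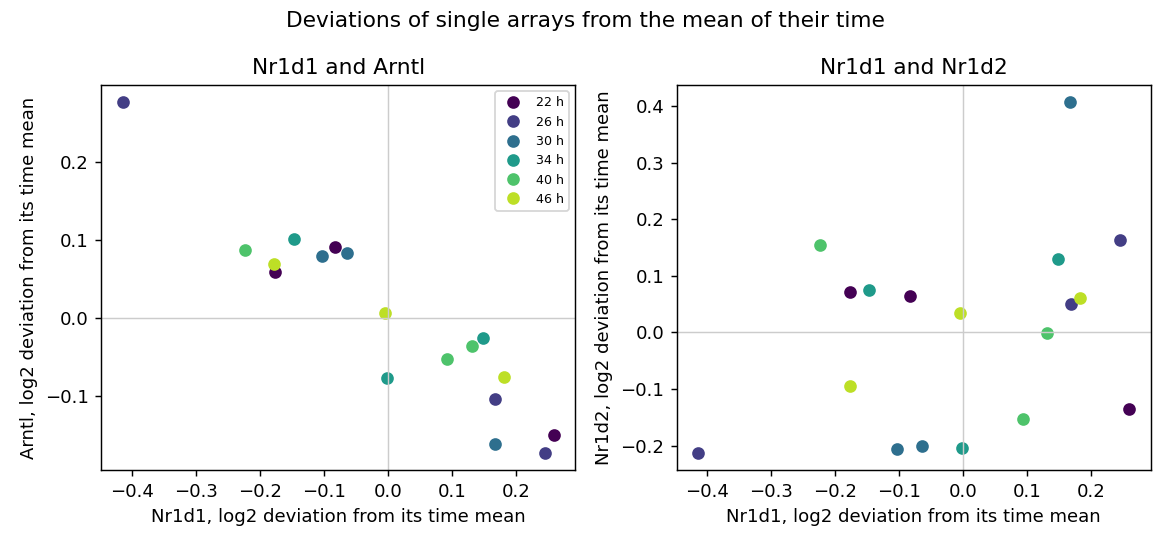
Deviation of each array from the mean of its time (log2), Arntl against Nr1d1 (left) and Nr1d2 against Nr1d1 (right); each point is 1 of 18 arrays, coloured by hours after dexamethasone. Arntl falls as Nr1d1 rises within times (r = -0.94), and Nr1d2 is more scattered (r = 0.33).

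Genes with the most similar pattern were sought over the 18 arrays by Pearson's r on the log2 values, among 9676 genes above the median level. These correlations are descriptions, since the arrays share their times. The F test, which 19.8% of all genes passed, used the same arrays by which these genes were picked. Their calls are therefore no separate support for the likeness. Closest to Nr1d1 were Egr3 (0.82), Slc7a1 (0.81), Aldh18a1 (0.78), Nr4a1 (0.78) and Tagln (0.77), of which Egr3 and Nr4a1 encode transcription factors induced by serum and Tagln a smooth muscle protein. Their own ranges were small, from 0.06 to 0.48 log2, and only Nr4a1 and Tagln passed the F test. Most opposed to Nr1d1 were Naaa (-0.90), Pip4k2c (-0.87) and Pcdhb7 (-0.85). Nr1d2 was most like Tubb5 (0.88), Mast2 (0.87), Tacc2 (0.87), Cep295 (0.86) and Ccnd1 (0.85), the last encoding cyclin D1, and these 5 passed the F test with ranges from 0.18 to 0.56. It ran most against Ier5 (-0.91), Tmco3 (-0.88) and Fbxo36 (-0.87). The REV-ERB genes had an r of 0.68 with each other, which placed Nr1d2 at 11 among the genes most like Nr1d1 and Nr1d1 at 426 among those most like Nr1d2. With Arntl the r was -0.57 for Nr1d1 and -0.86 for Nr1d2.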

How the data were processed

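Total RNA was labelled with whole-transcript kits and hybridised to 1 Affymetrix array per sample (labels' protocols). Each deposited value is a probe set's intensity on a linear scale; the submitters' processing notes name Affymetrix Expression Console 1.1 and PLIER 2.0, whose settings are not stated. Culture media differ between label fields. Of 35556 probe sets, 21789 have 1 gene symbol in the platform annotation. The brightest per gene was kept (19938 genes). Values were taken as log2(value + 16), which understates changes of dim genes, and quantile normalized.

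Using R 4.3.3 and limma 3.58.1, time means were fitted to all 18 arrays (lmFit, eBayes) for an F test and contrasts, and a 24 h cosine in a separate fit, with Benjamini-Hochberg adjustment over all genes and a threshold of 0.05. The fits were also run on simulated data with independent noise for each gene, unlike the shared component of the arrays, and no result here rests on that run. The share of all genes called is given as background to the counts. Figures used matplotlib 3.10.9. RefSeq tables (GRCm38.p6) gave promoters, names and neighbours; both members matched. All columns of the table were used.

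The REV-ERB genes and the gene lists were chosen with earlier results of these data known. Named are both genes, every clock or target gene that passed the F test, up to 4 genes of each other list with the smallest F test p, the 5 most alike and 3 most opposed genes, and 3 measured neighbours on each side; other genes named were chosen after their values were seen.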

Additional observations from a re-analysis of the deposited data

How the results depend on the processing

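The F test, the comparison of 34 h against 22 and 46 h together, and the difference between the REV-ERB genes kept direction and side of the threshold under all alternatives run, as did the comparison of 46 with 22 h. For Nr1d2 the cosine amplitude stayed at 0.47 but did not pass with the replicate number as a block (adjusted p = 0.0675) or with trended, robust variances (adjusted p = 0.0578). At a period of 20 h the amplitudes were 0.59 for Nr1d1 and 0.43 for Nr1d2, and neither passed. With a period longer than 24 h both passed. Apart from single arrays left out, the cosine call was kept in 12 of 13 alternatives for Nr1d1 and 10 of 13 for Nr1d2. With single arrays left out the Nr1d2 amplitude ranged from 0.44 to 0.51, and 8 of 18 fits did not pass. The 1 pair of Nr1d2 times that differed between neighbours in level became 0 with every probe set tested on its own and with the replicate block, and ranged from 0 to 1 with single arrays left out. Of the 65 measured genes of the pathway lists, 27 passed the F test (19.8% of all genes did), 45 with array weights, 18 without the arrays of 22 h or of 46 h, and from 20 to 29 with single arrays left out. The cause of these changes was not tested.

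Replicate numbers did not pair the samples: correlations of deviations between same-numbered arrays ran from -0.56 to 0.49 with a median of -0.10, and 6 of 18 arrays correlated best with their own number. With the replicate number as a block the difference between the REV-ERB genes passed (exact permutation p = 0.00926). The block also ended the calls of Nr1d1 between 30 and 40 h (adjusted p = 0.0718) and of Nr1d2 between 22 and 26 h (0.0517) and between 26 and 40 h (0.0641), and the F test calls of Per1, Ccl2, Hdac3 and Blvrb. Fits without the arrays of 22 or 46 h, and the relation within times, were chosen after seeing the data.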
